A study of Mus musculus with 6 samples.

Results

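The genes described here encode the folding and quality-control machinery of the endoplasmic reticulum (ER): chaperones, disulfide-forming enzymes, the machinery of ER-associated degradation, the protein-entry channel, and the sensors of ER stress. A list of 40 such genes was looked up by symbol among the 21929 genes of the table. Of these 38 matched by gene name, Ero1b matched by its MGI symbol, and Vimp was found under its current symbol Selenos through a RefSeq synonym. They fall into 13 chaperones and folding factors, 7 disulfide isomerases and related enzymes, 11 degradation genes, 5 translocon genes and 4 stress-sensing genes.

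L929 is an established mouse fibroblast line. Every library was made from L929 cells after co-culture with tumour cells, divided by a biotin mark. The 3 Biotin-negative libraries are labelled as cells that had not interacted with the tumour, the 3 Biotin-positive libraries as MFCSTCL interacted cells, and neither group carries a further treatment or genetic change in the labels. The labels give no library of L929 cells grown alone, do not say how biotin was attached or how the cells were separated, and do not say that replicates were separate cultures. All 6 share 1 batch entry. P-values are therefore set against the spread among 6 libraries, part or all of which could be technical.

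Secretory and membrane proteins enter the ER through the Sec61 channel, fold with the help of the Hsp70 chaperone BiP, the Hsp90 relative GRP94 and the lectin chaperones calnexin and calreticulin, and gain disulfide bonds from protein disulfide isomerases. Proteins that fail to fold are drawn back to the cytosol and degraded by the proteasome, a route built around the ubiquitin ligase HRD1. When unfolded proteins build up, the sensors IRE1, PERK and ATF6 raise the transcription of these genes in the unfolded protein response. Fibroblasts secrete large amounts of collagen and other matrix, so the machinery is well expressed in them.

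The libraries resembled each other closely within a group. Pearson correlations of log2(FPKM + 1) across tested genes were 0.994 to 0.996 within groups and 0.927 to 0.93 across groups. FPKM values summed to between 337771 and 356681 per library. Of 14 fibroblast markers, 10 reached testing, of which 8 fell and Vim and S100a4 rose, and Thy1, Dcn, Lum and Fap stayed below 1 FPKM in every library. The summed level of the fibroblast markers was 4323 to 4565 FPKM in Biotin-negative and 2704 to 2777 FPKM in Biotin-positive libraries. Fn1, the fibronectin gene, had the largest change in FPKM, with 2016.5 ± 84.6 against 172 ± 4.53 FPKM. Without it the sums were 2379.6 to 2456 and 2529 to 2602 FPKM. Those sums include the rises of Vim, from 658 ± 14.0 to 1417.5 ± 43.5 FPKM, and of S100a4, from 539 ± 15.7 to 722 ± 37.7 FPKM. The other falling markers had ratios between the groups from 0.0818 (Col6a1) to 0.577 (Pdgfra). Of 20 epithelial markers, 18 stayed below 1 FPKM in every library, with Krt5 at 0 throughout and Epcam at 0 in the Biotin-negative group. The keratin genes Krt7 and Krt8 were higher in Biotin-positive libraries and carried the list, whose summed level was 1.74 to 1.94 FPKM in Biotin-negative and 46.1 to 48.3 FPKM in Biotin-positive libraries. Near-identical matches in Krt8-ps and the overlapping Gm36026 cover 51.8% of the Krt8 transcript. Of 10 leukocyte markers, Cd14, Lyz2 and Cd79a were higher and the others stayed below 1 FPKM, with a summed level of 4.31 to 5.83 against 10.2 to 12.8 FPKM. The 6 endothelial markers stayed below 1 FPKM. Krt7, Krt8 and Cd79a were at or above 1 FPKM in the Biotin-positive group alone, so they could be tested only as rises. The part of these markers in the ER results was not tested.

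The ER folding and degradation genes were lower in Biotin-positive cells almost throughout. Of 39 tested members, 37 fell, 0 rose and 2 did not pass, at a limma adjusted p below 0.05. Among all 11029 tested genes, 36.1% fell by the same rule and 37.8% rose, 73.9% in all. No member rose at an unadjusted p below 0.05 either (0 of 39). All 39 stood at 1 FPKM or more in every library, so none was tested on the strength of 1 group. The median log2 difference (Biotin-positive minus Biotin-negative, on the log2(FPKM + 1) scale) was -0.65 for the members and 0.01 for all tested genes. For 37 members all Biotin-positive libraries lay below all Biotin-negative ones, which held for 37.8% of all tested genes, and in 76.9% of all tested genes the groups did not overlap in either direction. A fall of at least 1 on the log2 scale was measured for 9 members, against 3.41% of all tested genes. The differences of 20 members lay in the lowest 10% of all tested genes, and those of 30 in the lowest 25%.

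**Figure D1:**
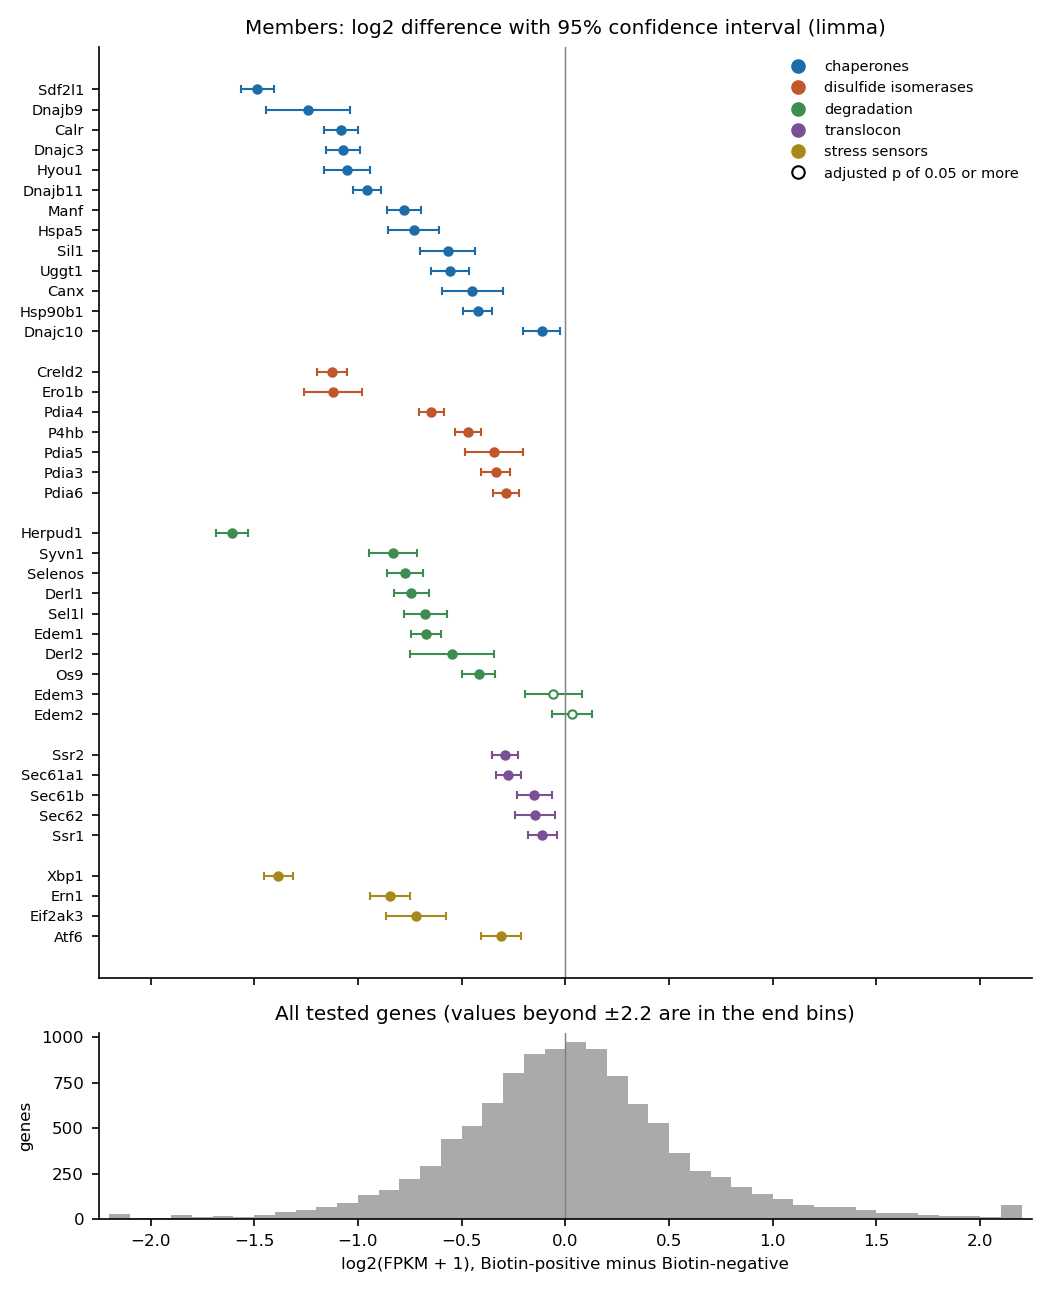
Log2 difference between Biotin-positive and Biotin-negative libraries for the 39 tested members, ordered by class, with 95% confidence intervals from limma, above a histogram of the same quantity for all 11029 tested genes. Filled symbols passed the test and all lie left of 0, while the open symbols of Edem2 and Edem3 lie at 0.03 and -0.06.

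Summed over the members, the level was 11051, 10655 and 10746 FPKM in the Biotin-negative libraries and 6860.4, 6785 and 6498 FPKM in the Biotin-positive ones. This was 3.15 to 3.25% of all FPKM in the former and 1.86 to 1.92% in the latter, with no overlap between the groups. In bulk RNA, fewer cells with a high level and less RNA in every cell cannot be told apart. The members are abundant transcripts, with a median of 68.4 FPKM in Biotin-negative cells against 11.6 FPKM for all tested genes. Of the 1194 tested genes at 50 FPKM or more in Biotin-negative cells, 39.5% fell and their median log2 difference was 0.04, while all 23 members at that level fell. The summed level of the stress-sensing class in Biotin-positive cells was 0.44 of that in Biotin-negative cells, of the degradation class 0.527, of the chaperones 0.587, of the disulfide enzymes 0.715 and of the translocon 0.85. Single genes weighed on these sums: the ratio was 0.643 for the stress-sensing class without Xbp1 and 0.65 for the degradation class without Herpud1. By median log2 difference the order was another, with -0.78 for stress sensors and for chaperones, -0.67 for degradation, -0.47 for disulfide enzymes and -0.15 for the translocon. Differences between classes were not tested.

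**Figure D2:**
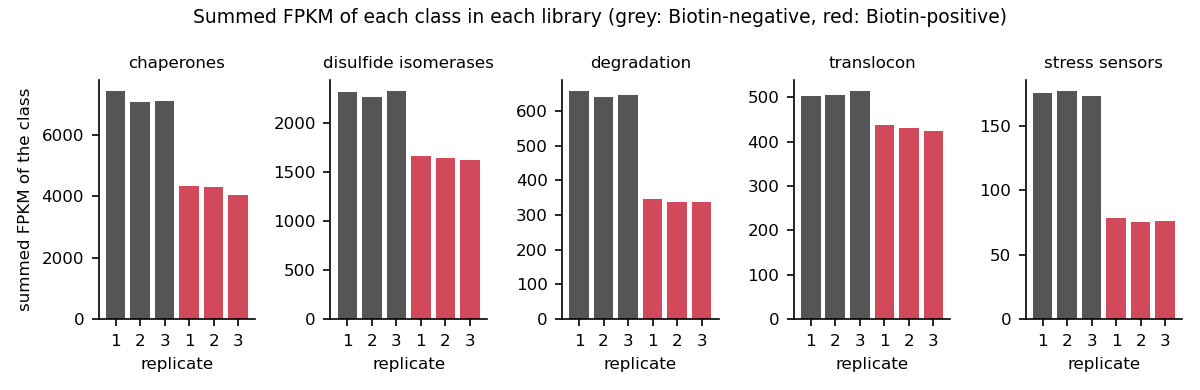
Summed FPKM of each of the 5 classes in each library, with replicates 1 to 3 of the Biotin-negative group in grey and of the Biotin-positive group in red, each axis starting at 0. Chaperones go from a mean of 7194 to 4225 FPKM and the translocon from 507 to 431 FPKM.

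Promoters of ER chaperone genes are known for the ER stress response element (ERSE), read as CCAAT, any 9 bases and CCACG, to which ATF6 and XBP1 bind together with the CCAAT-binding factor NF-Y. A shorter form, ERSE-II, reads ATTGG, any 1 base and CCACG. Both strands of the RefSeq promoter windows on GRCm38.p6, from 250 bases before to 50 bases after the annotated start, were searched for these letters. The table held windows for 33 members, of which 12 contained one of the elements: 10 an ERSE and 2 an ERSE-II. Over all 27025 genes of the table, 0.137% had an ERSE and 0.0444% an ERSE-II, and of all windows 0.119% and 0.0365%. The UPRE core TGACGTGG was found in 0 of the 33 members and in 0.714% of all genes. The short core CCACG, which lies inside both elements, was in 26 of the 33 members and in 35.5% of all genes. It was more common among tested genes with a window, of which 4667 held it and 4143 did not. Of these, 37.3% with the core and 34.1% without it fell. The stretches below are shown because they carry the shared element, with the matching letters in capitals and each printed on the strand of its gene. A reverse-strand ERSE reads CGTGG, 9 bases, ATTGG.
Hspa5 (chr2:34772020-34772048, plus strand): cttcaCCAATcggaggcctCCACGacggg
Hsp90b1 (chr10:86705633-86705661, minus strand): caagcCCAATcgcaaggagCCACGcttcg
Dnajc3 (chr14:118937822-118937850, plus strand): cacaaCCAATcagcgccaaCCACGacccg
Canx (chr11:50325795-50325823, minus strand): attgaCCAATcaccacgctCCACGaagaa
Calr (chr8:84847070-84847098, minus strand): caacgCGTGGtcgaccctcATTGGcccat
Creld2 (chr15:88819515-88819543, plus strand): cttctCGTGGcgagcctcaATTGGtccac
Ero1b (chr13:12565677-12565705, plus strand): ggcctCGTGGtcccgcctcATTGGccgcc
Pdia6 (chr12:17266486-17266514, plus strand): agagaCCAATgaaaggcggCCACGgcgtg
Syvn1 (chr19:6046527-6046555, plus strand): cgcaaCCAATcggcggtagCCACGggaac
Dnajb11 (chr16:22857847-22857867, plus strand): cggcgATTGGcCCACGcctgg
Herpud1 (chr8:94386372-94386392, plus strand): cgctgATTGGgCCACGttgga

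Hsp90b1 held 2 ERSEs, the second on the reverse strand, and the untested Derl3 held 1. The Dnajb11 element lies downstream of the annotated start, at bases 8 to 18, while the other elements lie upstream of theirs. The whole Hspa5 window (chr2:34771840-34772139, plus strand) shows the setting of the element, with the ERSE in capitals from base 65 to base 47 before the annotated start.
Hspa5 promoter: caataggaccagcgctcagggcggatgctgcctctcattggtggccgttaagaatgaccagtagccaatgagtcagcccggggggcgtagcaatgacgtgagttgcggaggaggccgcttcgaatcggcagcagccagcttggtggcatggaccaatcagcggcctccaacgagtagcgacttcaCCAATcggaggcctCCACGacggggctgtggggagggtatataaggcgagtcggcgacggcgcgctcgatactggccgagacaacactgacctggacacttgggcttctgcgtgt

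All 11 tested members with an ERSE or ERSE-II fell, with a median log2 difference of -0.96 and a range from -1.61 (Herpud1) to -0.28 (Pdia6). Of the 21 tested members whose window held neither, 19 fell, with a median of -0.54. Their range was from -1.48 (Sdf2l1) to 0.03 (Edem2), so the ranges overlapped widely. The 2 groups also differ in class. Of members with a window, 6 of 10 chaperones, 3 of 7 disulfide enzymes and 3 of 10 degradation genes held an element. None was held by the 3 translocon and 3 stress-sensing genes. The difference between the 2 groups was not tested. Outside the member list, 12 tested genes had one of the elements, and 9 of them fell, 1 rose and 2 did not pass, with a median of -0.52. These were named after their values were seen. Alg12, a mannosyltransferase of N-glycan assembly, fell from 21.3 ± 0.377 to 10.7 ± 0.534 FPKM (SD, n = 3 per group, limma adjusted p = 3.39e-07). Nucb1 and the oligosaccharyltransferase subunit gene Krtcap2, both from the further ER lists described below, had log2 differences of -0.62 and -0.40. Near-identical matches cover 20.4% of the Krtcap2 transcript. The other falls were those of Acacb (-0.81), Rcl1 (-0.72), Pan2 (-0.64), Adcy3 (-0.59), Lgalsl (-0.44) and Rbm39 (-0.41). Xlr3c rose from 0 to 1.76 ± 0.242 FPKM, but 99.9% of its transcript has near-identical matches in other genes. Xlr3c reached testing through the Biotin-positive group alone, so it could be tested only as a rise. Adcy3, at 1.49 ± 0.227 against 0.643 ± 0.0565 FPKM, reached testing through the Biotin-negative group alone, so only as a fall. The overlapping gene Cenpo matches 27.9% of the Adcy3 transcript. Of the 8766 tested genes with a window and neither element that are not members, 35.6% fell, with a median of 0.02. A match is a run of letters, not a measured binding site.

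**Figure D3:**
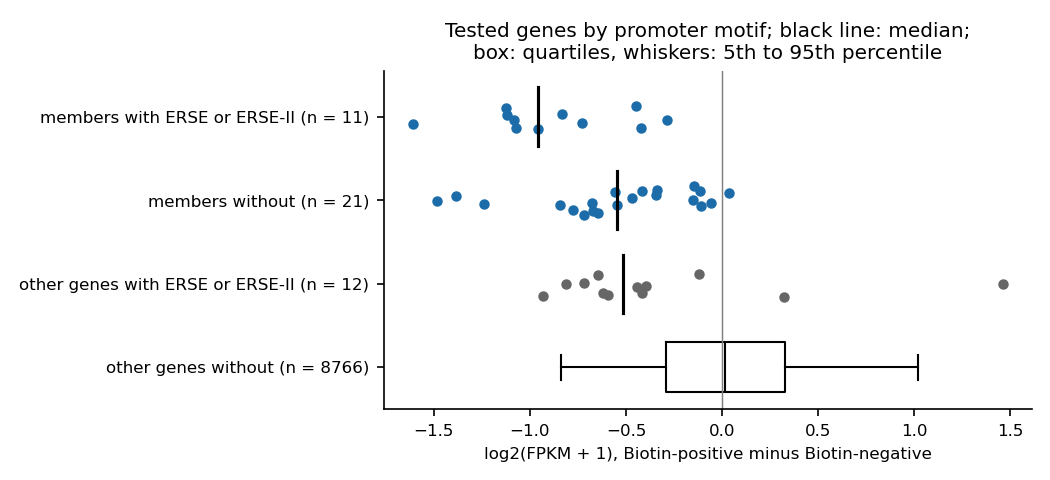
Log2 difference of tested genes with a RefSeq promoter window, divided by membership and by an ERSE or ERSE-II in the window. Dots are genes, black lines medians (-0.96, -0.54 and -0.52 from the top), and the box gives the quartiles of the other 8766 genes around a median of 0.02.

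All 13 chaperones and folding factors fell, with a median log2 difference of -0.78. Hspa5, which encodes BiP, lies at chr2:34771970-34777547 (ENSMUSG00000026864) and was the most abundant member in both groups. Its level was 3062, 2849.7 and 2861 FPKM in the Biotin-negative libraries and 1841, 1825 and 1626 FPKM in the Biotin-positive ones. Each Biotin-positive library was lower than each Biotin-negative one, with a log2 difference of -0.73 (SE 0.0539, limma adjusted p = 3.78e-06), which was -0.45 after quantile normalization. The lectin chaperone gene Calr (chr8:84841850-84846934) was at 1733, 1636 and 1661 FPKM against 816, 770.3 and 788 FPKM, a ratio of 0.472. Its membrane-bound relative Canx was at 293, 345 and 291 FPKM against 226, 234 and 218 FPKM, a smaller fall to a ratio of 0.73. Uggt1, whose product returns misfolded glycoproteins to these lectins, fell from 23.7 ± 0.576 to 15.8 ± 0.408 FPKM. Hsp90b1, the gene of GRP94, was at 1234, 1193 and 1209 FPKM against 921, 912 and 879 FPKM, with near-identical matches to 14.4% of its transcript.

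Among 7 cofactors of BiP, 5 had a lower ratio between the groups than BiP itself. Sdf2l1, whose product works with ER J-domain proteins, had the largest fall of the class (chr16:17130138-17132383), with 214, 212 and 219.6 FPKM against 73.8, 79.6 and 75.7 FPKM and a log2 difference of -1.48 (SE 0.0346, limma adjusted p = 6.98e-09). The J-domain gene Dnajb9 was at 53.7, 66.1 and 49.8 FPKM against 23.2, 22.8 and 23.5 FPKM. Its Biotin-negative libraries spread widely, yet the lowest of them was above every Biotin-positive library. The other J-domain genes Dnajc3 (35.5 ± 0.835 to 16.4 ± 0.242 FPKM) and Dnajb11 (139.98 ± 1.06 to 71.7 ± 1.903 FPKM) fell as well. Hyou1, an Hsp70 relative that acts as a nucleotide exchange factor for BiP, fell from 282 ± 13.4 to 136 ± 7.48 FPKM, and Sil1, another exchange factor, from 17.1 ± 0.824 to 11.2 ± 0.741 FPKM. The secreted folding factor gene Manf fell from 255.9 ± 10.95 to 149 ± 2.27 FPKM. Dnajc10, a J-domain protein with reductase activity, had the smallest fall of the class, from 44.4, 44.2 and 43.6 to 41.8, 41.5 and 38.6 FPKM (log2 difference -0.11, limma adjusted p = 0.0234). The Dnajc10 difference no longer passed when Biotin-negative replicate 1 (limma adjusted p = 0.0593) or Biotin-positive replicate 3 (0.0796) was left out, and it was -0.18 after quantile normalization or with an equal sum per library.

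**Figure D4:**
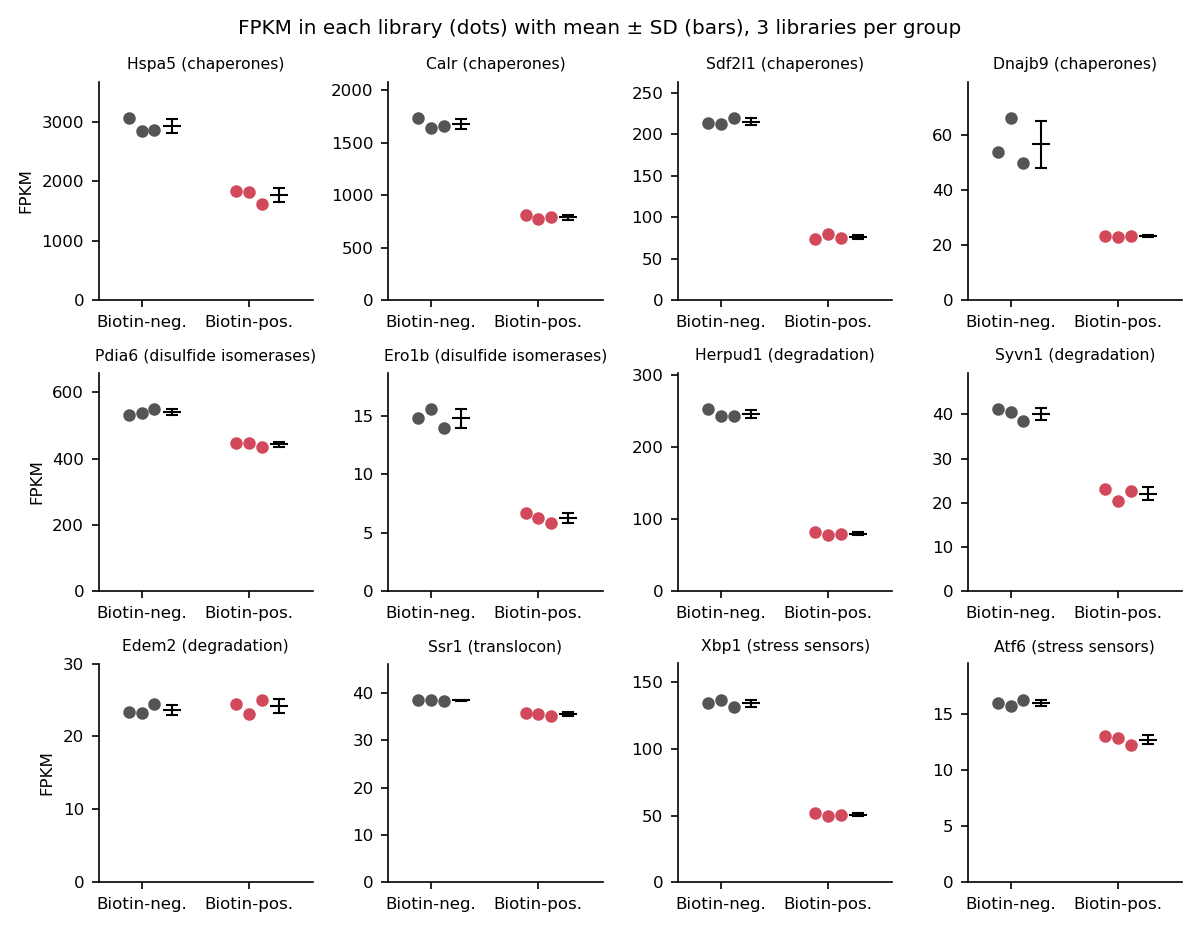
FPKM of 12 members in each library (dots) with the mean and SD of each group of 3, each axis starting at 0. Hspa5, Calr, Sdf2l1, Herpud1 and Xbp1 show the groups far apart, Ssr1 and Atf6 a small gap, and Edem2 overlapping groups between 23.1 and 25.001 FPKM.

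FPKM is scaled by gene length, so members can be set against each other within a library, and 11 such ratios, chosen after the values were seen, were computed. For every 100 FPKM of Hspa5 there were 6.99, 7.45 and 7.68 FPKM of Sdf2l1 in the Biotin-negative libraries and 4.01, 4.36 and 4.65 in the Biotin-positive ones. Dnajb9 went from 1.94 ± 0.331 to 1.32 ± 0.11 and Hyou1 from 9.65 ± 0.256 to 7.71 ± 0.521 per 100 FPKM of Hspa5. Hsp90b1 moved the other way, from 41.5 ± 1.03 to 51.3 ± 2.35, since it fell less than Hspa5. Sil1 was at 0.585 ± 0.0345 and 0.639 ± 0.0744, with overlapping libraries. Of the lectins, there were 546 ± 62.6 FPKM of Calr per 100 FPKM of Canx in Biotin-negative and 351 ± 18.9 in Biotin-positive libraries. For each ratio but that of Sil1 the two-sided exact permutation p was 0.1, the smallest that 3 against 3 libraries allow, and 0.11 adjusted over the 11 ratios. For Sil1 the exact permutation p was 0.3.

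All 7 disulfide enzymes and related genes fell, with a median log2 difference of -0.47. Pdia6, the most abundant of the class, was at 532, 536 and 549 FPKM in Biotin-negative libraries and 447, 446 and 434 FPKM in Biotin-positive ones, a ratio of 0.82. P4hb, the gene of the founding isomerase PDI, was at 523 ± 9.15 and 378 ± 4.66 FPKM, and Pdia3, which works with the lectin chaperones, at 491 ± 9.37 and 389 ± 10.1 FPKM. Pdia5 fell to a ratio of 0.784, and Pdia4 further, to 0.638. Creld2 and Ero1b had the lowest ratios of the class. Creld2, which encodes a secreted ER-stress-inducible protein with isomerase activity, was at 253, 247 and 263 FPKM against 113, 118 and 117 FPKM. Its log2 difference was -1.12 (SE 0.0325, limma adjusted p = 2.01e-08). Ero1b, an oxidase that hands oxidizing power to PDI, was at 14.8, 15.6 and 13.9 FPKM against 6.69, 6.23 and 5.86 FPKM. A near-identical match in the annotated gene Gm18562 covers 21.7% of its transcript. Per 100 FPKM of P4hb there were 2.83 ± 0.194 FPKM of Ero1b in Biotin-negative and 1.66 ± 0.0909 in Biotin-positive libraries.

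Of 10 tested degradation genes 8 fell and 2 did not pass, and Derl3 was not tested. Herpud1 (chr8:94386438-94395377, ENSMUSG00000031770), which encodes a membrane protein that organises the HRD1 ligase complex, fell furthest of all members. It was at 253, 243 and 242 FPKM in Biotin-negative libraries and 82.9, 78.0 and 79.1 FPKM in Biotin-positive ones, a log2 difference of -1.61 (SE 0.0335, limma adjusted p = 3.81e-09). Syvn1, the gene of HRD1, was at 41.2, 40.4 and 38.5 FPKM against 23.1, 20.5 and 22.7 FPKM. Its partner Sel1l was at 59.1, 52.3 and 54.4 FPKM against 34.2, 33.9 and 34.5 FPKM. Within the complex, Herpud1 went from 614 ± 14.6 to 363 ± 16.1 FPKM per 100 FPKM of Syvn1, while Sel1l went from 138 ± 7.70 to 155 ± 8.94.

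Derlins and the product of Selenos take part in moving substrates back to the cytosol. Derl1 fell from 70.8 ± 1.53 to 41.9 ± 1.58 FPKM, Derl2 from 13.2 ± 1.73 to 8.69 ± 0.555 FPKM and Selenos from 89.9 ± 1.70 to 52.2 ± 2.35 FPKM. Derl3 was at 0.322, 0.0984 and 0.218 FPKM against 0.154, 0.05 and 0.0815 FPKM, with overlapping groups. Os9, a lectin that delivers glycoproteins to the ligase, fell from 66.04 ± 2.03 to 49.1 ± 0.86 FPKM. The EDEM mannosidases, which trim glycans to mark proteins for degradation, did not move together. Edem1 was at 36.0, 36.8 and 36.1 FPKM against 22.4, 22.4 and 22.6 FPKM (log2 difference -0.67, limma adjusted p = 2.61e-07). Edem2 was at 23.3, 23.2 and 24.4 FPKM against 24.5, 23.1 and 25.001 FPKM, with overlapping groups, a log2 difference of 0.03 (-0.026 with an equal sum per library) and a 95% confidence interval from -0.06 to 0.13. Edem3 was at 6.68, 7.35 and 6.39 FPKM against 6.43, 6.36 and 6.68 FPKM, with a log2 difference of -0.06 (-0.11 with an equal sum) and an interval from -0.20 to 0.08. The difference between the EDEM genes was not tested.

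The 5 translocon genes all fell, by little. The median log2 difference was -0.15, and the furthest fall, of Ssr2, was 0.29 on the log2 scale. Sec61a1, the pore subunit, was at 127, 124 and 125 FPKM in Biotin-negative libraries and 105, 103 and 103 FPKM in Biotin-positive ones. Sec61b went from 107 ± 4.57 to 96.5 ± 1.99 FPKM, but 84.0% of its transcript has a near-identical match in the annotated gene Gm10320, so its level is uncertain. Its log2 difference was -0.15, and -0.27 after quantile normalization. Sec62, which serves post-translational entry, was at 30.4, 32.9 and 30.3 FPKM against 28.7, 27.7 and 27.8 FPKM. The translocon-associated Ssr1 was at 38.4, 38.5 and 38.2 FPKM against 35.8, 35.6 and 35.1 FPKM. Its log2 difference was -0.11, and -0.17 with an equal sum per library. Ssr2 was at 204.6, 202 and 208 FPKM against 169, 169 and 163 FPKM. Annotated neighbours or copies match 17.4% of the Sec61a1 transcript and 12.9% of that of Sec62, and 12.8% of Ssr2 overlaps a gene on the other strand. The limma adjusted p of these genes ran from 2.03e-05 (Ssr2) to 0.012 (Sec62).

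All 4 stress-sensing genes fell. Xbp1 (chr11:5520659-5525893, ENSMUSG00000020484), whose mRNA is spliced by IRE1 into the form that encodes an active transcription factor, was at 134, 137 and 132 FPKM in Biotin-negative libraries. In Biotin-positive libraries it was at 51.8, 49.7 and 50.9 FPKM, a log2 difference of -1.38 (SE 0.0303, limma adjusted p = 4.94e-09). Values per gene do not separate the spliced from the unspliced form. Ern1, the gene of IRE1, was at 14.1, 14.4 and 14.5 FPKM against 7.62, 7.47 and 7.54 FPKM. Eif2ak3, the gene of PERK, was at 10.6, 9.56 and 10.4 FPKM against 6.26, 5.47 and 5.67 FPKM. The annotated gene Gm43292, which overlaps it on the other strand, matches 10.8% of its transcript. Atf6 fell least, from 16.0, 15.7 and 16.2 to 13.0, 12.8 and 12.3 FPKM (ratio 0.795, limma adjusted p = 0.000179). No library of one group reached into the other for these 4 genes.

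Hspa5 ranked first in both groups, Calr and Hsp90b1 took ranks 2 and 3 in Biotin-negative cells and the reverse in Biotin-positive cells, and Pdia6 ranked 4 in both. Herpud1 went from rank 12 to 15 and Dnajb9 from 22 to 28, while Ssr2 went from 14 to 9 and Edem2 from 32 to 27. In each group, 11 of 39 neighbouring pairs in this order had overlapping libraries. The coefficient of variation of a member within a group had a median of 2.62% and ran from 0.363% (Ssr1, Biotin-negative) to 56.1% (Derl3, Biotin-positive).

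Further genes of the same pathways, listed beside the members, had medians closer to 0 than the members' median in each of 5 ER lists. Their counts are to be read against the 36.1% of all tested genes that fell and the 37.8% that rose. Of 31 tested other ER chaperones and glycan-folding genes, 22 fell and 5 rose, with a median log2 difference of -0.26. One of the falls, Uggt2, was below 1 FPKM throughout the Biotin-positive group. The reticulocalbin gene Rcn3, whose product binds calcium in the secretory pathway, fell from 36.0 ± 0.912 to 13.5 ± 0.978 FPKM, and the J-domain gene Dnajc1 from 12.3 ± 0.751 to 6.42 ± 0.489 FPKM. Kdelr1, a receptor that returns escaped chaperones to the ER, rose from 37.9 ± 1.02 to 51.9 ± 1.15 FPKM and Rcn2 from 25.6 ± 0.621 to 32.6 ± 2.29 FPKM.

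Of 22 tested other ER oxidoreductases, 11 fell and 5 rose (median -0.14). Qsox1, a sulfhydryl oxidase, fell from 77.3 ± 2.02 to 45.8 ± 1.12 FPKM. Ero1a, the paralog of Ero1b, fell from 162 ± 1.42 to 97.4 ± 2.15 FPKM, a ratio of 0.603 against 0.424 for Ero1b. The peroxidase gene Gpx8 rose from 52.3 ± 1.83 to 71.4 ± 4.85 FPKM. Vkorc1l1 rose from 13.2 ± 1.06 to 17.7 ± 3.51 FPKM (limma adjusted p = 0.0226). The Vkorc1l1 rise did not pass when Biotin-negative replicate 2 (limma adjusted p = 0.0681), Biotin-positive replicate 1 (0.0726) or Biotin-positive replicate 2 (0.0692) was left out, with no filter on low values (0.06) or with robust moderation (0.0523). Without Biotin-positive replicate 1 the rises in this list were 3.

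Degradation genes beyond the members went both ways, with 12 falls and 9 rises among 33 tested. Their median of 0.01 was that of all tested genes, and the share of falls was near the share over all tested genes. Rnf185, a ubiquitin ligase gene, fell from 21.8 ± 0.619 to 13.6 ± 0.475 FPKM. Ubxn6 fell from 12.4 ± 0.503 to 6.996 ± 0.318 FPKM, and 60.5% of its transcript matches the overlapping gene Chaf1a. Nploc4, a cofactor of the p97 segregase, rose from 20.7 ± 0.576 to 33.8 ± 0.733 FPKM, and the mannosidase gene Man1a was at 0, 0.0101 and 0 FPKM against 1.19, 1.26 and 1.12 FPKM. Man1a reached testing through the Biotin-positive group alone, so its rise was set by the filter, and 8 rises are left without it.

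Of 47 tested translocon, targeting and glycosyltransferase genes, 27 fell and 10 rose (median -0.23), or 30 and 6 after quantile normalization. The oligosaccharyltransferase subunit genes Ostc and Rpn1 fell from 189 ± 4.28 to 123 ± 4.57 FPKM and from 124 ± 1.72 to 81.7 ± 1.91 FPKM. Emc3 and Emc6, subunits of the ER membrane protein complex, went up, Emc3 from 28.6 ± 0.437 to 38.4 ± 0.259 FPKM and Emc6 from 13.9 ± 0.23 to 19.1 ± 4.21 FPKM.

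Of 32 tested stress-signalling genes, 19 fell and 8 rose (median -0.26), or 21 and 5 with libraries rescaled to an equal sum. Ddit3, the gene of the transcription factor CHOP, was at 694, 681 and 707 FPKM against 173, 178 and 162 FPKM. Trib3, a CHOP-induced pseudokinase gene, fell from 197 ± 3.72 to 78.2 ± 3.10 FPKM. Chac1, a glutathione-degrading enzyme gene of the same stress response, rose from 31.8 ± 0.577 to 46.9 ± 1.94 FPKM. Creb3, which encodes an ER-bound transcription factor, rose from 22.3 ± 0.552 to 31.9 ± 1.98 FPKM, and its neighbours Gba2 and Tln1 match 26.2% of its transcript.

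Chaperones of the cytosol and mitochondria differed in direction. Of 31 tested, 18 rose and 3 fell, with a median log2 difference of 0.24. Among all tested genes, 37.8% rose and 36.1% fell. Rises and falls in the list were 18 and 8 after quantile normalization and 18 and 7 with an equal sum per library. Hsp90aa1, the cytosolic counterpart of GRP94, was at 122, 122 and 121 FPKM against 294, 294 and 276 FPKM, and 68.7% of its transcript has near-identical matches. The small heat shock gene Hspb1 was at 0.0739, 0.104 and 0 FPKM against 1.78, 2.03 and 2.01 FPKM, with 51.8% of its transcript matched. Hspb1 likewise reached testing only through the group where it is high, and 17 rises are left without it. The mitochondrial J-domain gene Dnaja3 fell from 35.7 ± 0.148 to 26.0 ± 0.452 FPKM. Hspa1b fell from 2.68 ± 0.249 to 1.11 ± 0.124 FPKM, and it shares 78.5% of its transcript with Hspa1a. Summed over this list, the level was 3405 to 3499 FPKM in Biotin-negative and 4872 to 5018 FPKM in Biotin-positive libraries, while the summed level of the ER members fell. The difference between the 2 sets of chaperones was not tested as a set.

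**Figure D5:**
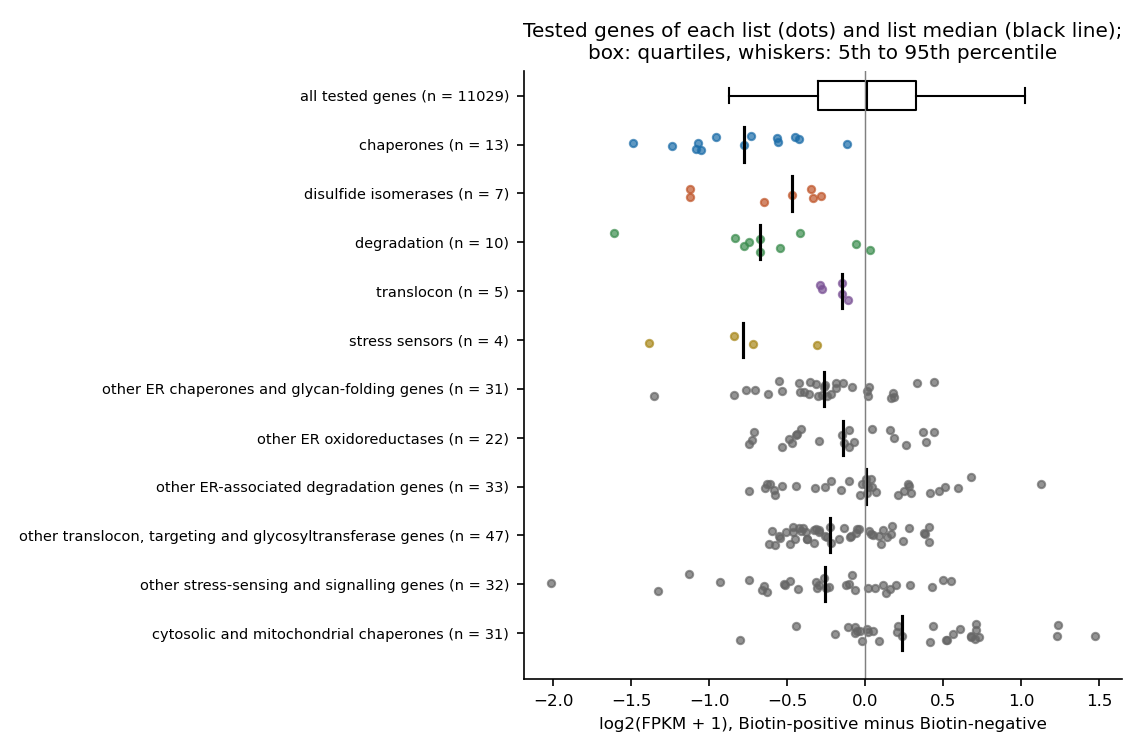
Log2 difference of every tested gene in the 5 member classes (coloured) and in the 6 further lists (grey), with the list median as a black line, beside quartiles and 5th to 95th percentiles of all 11029 tested genes. Chaperone members centre on -0.78, the translocon on -0.15, and cytosolic and mitochondrial chaperones on 0.24.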

How the data were processed

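RNA-seq was compared between 3 Biotin-negative and 3 Biotin-positive L929 libraries. The authors deposited FPKM values (by the usual definition, fragment numbers scaled by gene length and by a measure of library size), 1 column per library. The submitters' processing notes name cutadapt 1.9.1, HISAT2 2.2.1, HTSeq 0.6.1 and GRCm39. The program behind the FPKM values, their denominator and the strandedness are not given in the sources used here. Of 21816 genes found in GENCODE vM21 (GRCm38), 99.1% had identical coordinates in the deposited table, so coordinates are given as GRCm38. Depth is unknown, and the SD over 3 libraries gives the spread among them, part or all of which could be technical.

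The 11029 genes that reached 1 FPKM in 3 or more libraries were tested on log2(FPKM + 1) with limma 3.58.1 (trend, two-sided, R 4.3.3), Benjamini-Hochberg adjusted over all of them, threshold 0.05. The procedure was tested on simulated data. Members and lists were chosen with earlier results of these data known. Named genes are all members, the 2 largest falls and the 2 largest rises that passed in each further list, and Krt7 and Krt8. Outside that rule, further cell type markers and the non-member genes with a promoter element were named after their values were seen. Near-identical matches (98% over at least 100 bases) came from blastn 2.17.0 on vM21 transcripts. Replicate numbers did not pair the libraries. Protein endings were not analysed here. Alternatives were other pseudocounts, filters, scalings and priors, the replicate number as a term, each library left out and a log2 threshold.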

Additional observations from a re-analysis of the deposited data

How the results depend on the processing

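Of the 39 tested members, 38 had the same direction under all 17 alternatives. Edem2, which did not pass, turned to -0.026 with an equal sum per library. Leaving aside the log2 threshold, Dnajc10 was the only member whose call changed, and the 37 falls ranged from 36 to 37 over the libraries left out. The replicate block left the members at 37 falls and 0 rises and changed the call of no member. The labels do not say that equally numbered libraries belong together. Deviations of equally numbered libraries correlated at 0.04, 0.01 and 0.01, which cannot show whether they came from the same culture. With a log2 difference of at least 1 required, falls were 376 over all genes and rises 583. By the same rule the members had 9 falls, with 5 among chaperones, 2 among disulfide enzymes, 1 among degradation genes, 0 in the translocon and 1 among stress sensors. Falls and rises in the further lists were then 1 and 0 (ER chaperones), 0 and 0 (oxidoreductases), 0 and 1 (degradation), 0 and 0 (translocon), 3 and 0 (stress signalling), and 0 and 3 (cytosolic and mitochondrial chaperones). Man1a and Hspb1, each tested through the Biotin-positive group alone, are among these rises. Rises of oxidoreductases numbered 3 with no filter on low values, and 3 to 5 over the libraries left out. Translocon rises were 6 after quantile normalization, and stress-signalling rises 5 with an equal sum. Falls of cytosolic and mitochondrial chaperones were 5 with median-of-ratios scaling, 8 after quantile normalization and 7 with an equal sum. The median log2 difference of all genes was 0.01 as deposited and -0.05 with an equal sum. The causes were not tested. Reads per library are unknown, so no counting error can be given, and strandedness is not given in the sources used here.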
